A study of Mus musculus with 48 samples.

Results

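Among the regions of open chromatin that P19 cells shared across 4 signalling states, 1670 stood higher in untreated cells than with the receptor inhibitor SB-431542 and did not do so after Activin. They were chosen from the peak lists of the 4 states, joined wherever they shared 1 bp or more into 287329 regions, of which 162505 had a peak in every list. In each list the highest fold enrichment of a shared region was divided by its median over the shared regions, and L is the log2 ratio of this scaled value in a state to that with SB-431542. A region was taken when L was at least 0.4 in untreated cells and below 0.2 at both 1 h and 8 h of Activin. The regions are called untreated-high regions here. They make up 1.03% of the shared regions, and since the rule read the fold enrichments themselves, their values in the 4 lists describe the choice and are no test of it.

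The study performed ATAC-seq, in which the transposase Tn5 cuts accessible DNA, on P19 cells, a mouse embryonal teratoma line grown in serum-containing medium. Untreated cells signal chronically through the NODAL and GDF3 that they make, and no wash or change of medium is described for them. SB-431542 blocks the type I receptors of NODAL and Activin and was used at 10 µM, and these cells were washed and kept in the inhibitor for 1 h more. The Activin cells had the same inhibitor, were washed and then received Activin at 20 ng/ml for 1 h or 8 h, so untreated cells differ from the other 3 states in the history of inhibitor and wash as well as in signalling, and these cannot be told apart. Each state had 2 biological replicates of 100000 cells per reaction, listed as 12 libraries, and the deposited files hold 1 merged peak list per state. There is therefore no spread between replicates and no test between states for any value below. The intervals given are 95% intervals over the regions counted, which treat regions as independent. They hold no spread between cultures, and those of medians hold no read-counting error.

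The lists held 220004 peaks in untreated cells, 234758 with SB-431542, 233336 at 1 h and 209212 at 8 h of Activin. Depth, estimated from the lowest local background, was 85.9% of that of SB-431542 in untreated cells, 93.1% at 1 h and 80.4% at 8 h. Of 10 promoters of pluripotency markers, 9 carried a peak in every list, and none of the 3 liver promoters carried one in any list. The muscle marker *Myod1* and 2 of 3 blood markers also had a promoter peak in all 4 lists.

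NODAL and Activin bind paired serine/threonine kinase receptors, whose type I chains phosphorylate SMAD2 and SMAD3. The phosphorylated SMADs join SMAD4, enter the nucleus and reach enhancers beside partners such as FOXH1, a forkhead factor. In embryonic stem cells and embryonal carcinoma cells the enhancers of the pluripotent state are bound by OCT4 (POU5F1), an octamer-binding factor that often pairs with SOX2, and in mouse embryonic stem cells also by the orphan nuclear receptor ESRRB. E-boxes are the sites of basic helix-loop-helix factors, and of the zinc-finger repressors SNAI and ZEB where they read CAGGTG.

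The central 300 bp of 3 untreated-high regions are printed from the RefSeq sequence of the GRCm38 (mm10) assembly, + strand, to show what such a region looks like: the one upstream of *Dars*, with one of the largest gaps to the Activin states, the *Gli2* region with one of the 10 highest fold enrichments, and one beside *Hand1*, in which L fell below 0 after Activin. Capitals mark exact matches, on either strand, to the motifs searched. These are the octamer ATGCAAAT, the ESRRB motif TCAAGGTCA, the SOX motif CCATTGT, the T-box motif AGGTGTGA and the E-box CAGGTG. A match is a string of letters in the window and was not shown to be a bound site. The 3 windows lie at chr1:128432828-128433127 (intergenic, upstream of *Dars*), chr1:118852358-118852657 (intron of *Gli2*) and chr11:57813725-57814024 (intergenic, beside *Hand1*).
upstream of Dars: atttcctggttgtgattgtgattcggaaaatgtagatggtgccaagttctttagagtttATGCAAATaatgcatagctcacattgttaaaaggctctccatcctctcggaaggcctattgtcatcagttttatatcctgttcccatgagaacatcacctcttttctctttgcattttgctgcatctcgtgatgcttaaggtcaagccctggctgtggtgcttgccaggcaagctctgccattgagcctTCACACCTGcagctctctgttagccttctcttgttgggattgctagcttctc
Gli2 intron: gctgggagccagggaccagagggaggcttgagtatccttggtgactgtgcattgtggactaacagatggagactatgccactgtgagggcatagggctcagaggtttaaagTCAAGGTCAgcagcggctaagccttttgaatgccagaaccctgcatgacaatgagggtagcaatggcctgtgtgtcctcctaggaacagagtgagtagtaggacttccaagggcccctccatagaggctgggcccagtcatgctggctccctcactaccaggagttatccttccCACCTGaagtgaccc
Hand1 flank: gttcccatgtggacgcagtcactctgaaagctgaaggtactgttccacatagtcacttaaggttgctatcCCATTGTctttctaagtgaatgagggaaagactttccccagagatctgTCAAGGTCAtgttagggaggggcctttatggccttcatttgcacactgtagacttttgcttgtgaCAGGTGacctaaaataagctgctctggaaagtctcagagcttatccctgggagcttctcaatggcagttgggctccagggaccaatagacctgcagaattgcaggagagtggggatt

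The *Dars* window holds an octamer, a T-box match and an E-box, with the E-box and the T-box match sharing bases. The *Gli2* and *Hand1* windows each hold an ESRRB match and an E-box, and the *Hand1* window holds a SOX match too. In 4 untreated-high regions the octamer was preceded, with 1 base between, by TTGT, a half-site for SOX factors, in the arrangement that OCT4 and SOX2 use in embryonic stem cells. They are shown with 9 bases on either side, on the strand that reads the octamer, with both parts in capitals. They lie at chr16:66761813-66761843 in an intron of *Cadm2* (− strand), at chr19:49613091-49613121 (+ strand), at chr7:86333377-86333407 near *Olfr307* (− strand) and at chrX:18014582-18014612 (− strand), the last 3 intergenic.
Cadm2 intron: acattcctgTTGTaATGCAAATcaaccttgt
chr19 region: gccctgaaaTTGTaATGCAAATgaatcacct
near Olfr307: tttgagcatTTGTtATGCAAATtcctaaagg
chrX region: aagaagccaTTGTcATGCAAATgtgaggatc

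The fold enrichment of a peak, taken as the authors deposited it, sets its mean pileup against a background that MACS2 estimates around it in the same library pool. Over the untreated-high regions its median was 3.26 in untreated cells, against 2.33 with SB-431542, 2.15 at 1 h and 2.38 at 8 h of Activin. Over all shared regions the medians were 2.62, 2.67, 2.49 and 2.62 in the same order. In terms of rank, the typical untreated-high region sat at percentile 67.5 of the shared regions in untreated cells and at percentiles 37.6, 34.8 and 41.1 in the other lists. The median rank was thus above the middle in untreated cells and below it in the other lists, although single regions lay on either side in each.

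The median L of the untreated-high regions was 0.47 in untreated cells (interval 0.466 to 0.475), 0.02 at 1 h and 0.09 at 8 h. Most were close to the threshold: 1071 of 1670 (64.1%) had L below 0.5 in untreated cells, 222 (13.3%) reached 0.6, 25 (1.5%) reached 0.8 and 3 reached 1. In 1511 (90.5%) both Activin values lay within 0.2 of the SB-431542 level. In 128 (7.66%) L was −0.2 or less at 1 h alone, in 26 (1.56%) at 8 h alone and in 5 at both times. The Activin states stood with SB-431542 in most untreated-high regions, and below it in a minority, more often at 1 h. The rule itself kept both Activin values below 0.2, so these counts describe the choice. They are not given here for all shared regions.

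The rule draws a box in a continuous spread of values. The last regions inside the untreated threshold had L of 0.40002 (20.6 kb from *4933406D12Rik*), 0.40004 and 0.4001, and the first outside had 0.39997, 0.39994 and 0.39991. At 1 h the values nearest the limit were 0.19961, 0.19955 and 0.19954 inside and 0.20001, 0.20041 and 0.20052 outside. At 8 h they were 0.19993, 0.19987 and 0.19948 inside and 0.20001, 0.20037 and 0.20055 outside. There were 658 untreated-high regions with L below 0.45, beside 1086 regions from 0.35 to 0.40 that met the other limits. At the 8 h limit, 394 lay within 0.05 inside and 431 within 0.05 outside.

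**Figure D1:**
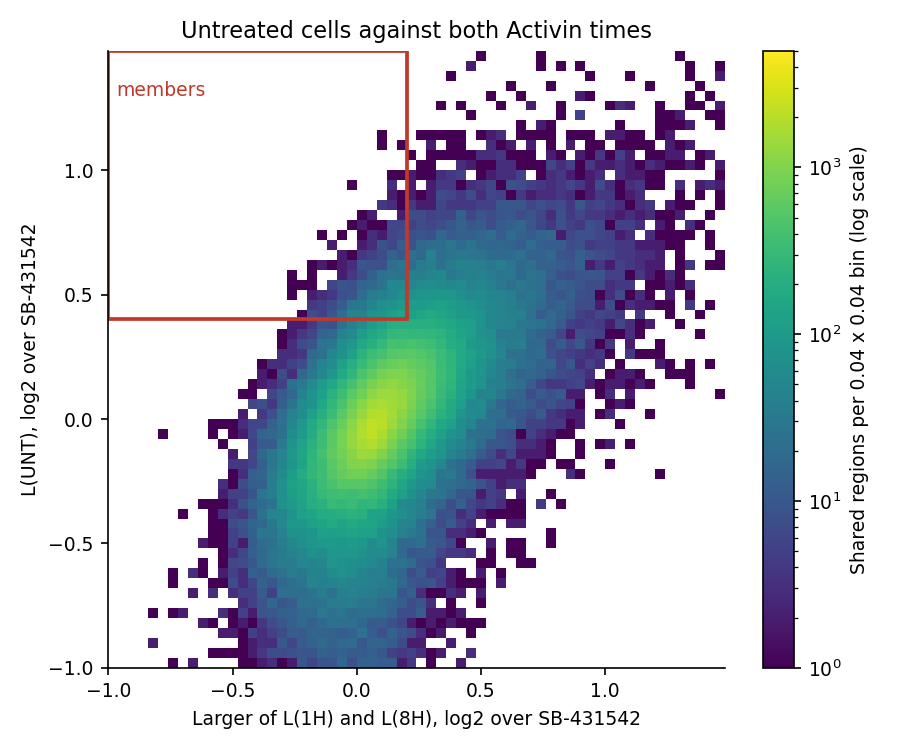
L in untreated cells (vertical, log2 ratio to SB-431542) against the larger of the 2 Activin values (horizontal), with the number of shared regions per bin of 0.04 in colour on a log scale. The red box, marked members, holds the 1670 untreated-high regions, at the edge of 1 continuous cloud; 674 shared regions and 0 untreated-high regions fall outside the plotted range.

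Of all shared regions, 5.33% (8654) had L of at least 0.4 in untreated cells, 1.01% at 1 h and 5.66% at 8 h. Of the 8654, 4074 (47.1%) were as high at 8 h, 2540 (29.4%) had L between 0.2 and 0.4 at 8 h, 370 (4.28%) were left out by the 1 h limit and the 1670 untreated-high regions made up the remaining 19.3%. High accessibility in untreated cells came most often with a raised level at 8 h of Activin. The same rule turned to the Activin lists gave 1834 regions high at 8 h alone and 479 at 1 h alone. By a different rule, 282 regions stood higher with SB-431542 than in every other state by at least 0.4 in L. That count is not comparable with the others. Regions with a peak in the untreated list and in no other, 13755 in all, are outside the rule.

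Fold enrichment is a ratio, so a region can stand high through more reads in the peak or through a lower local background. Both were estimated from the fold enrichment and the −log10 p of each peak, as MACS2 links them through a Poisson tail. The deposited values are averages over a peak, so the estimates are approximate and their error was not measured. The median pileup of the untreated-high regions was 92.6 reads per position in untreated cells, against 75.1 with SB-431542, 63.5 at 1 h and 61.0 at 8 h. The median local background was 27.2, against 30.9, 28.5 and 24.6 in the same order, close to the medians of all shared regions (27.4, 32.2, 29.7 and 25.3). After scaling by the shared regions, the pileup in untreated cells exceeded that with SB-431542 by a median log2 ratio of 0.52 (0.516 to 0.530), and the background by 0.04. Of both parts the pileup differed more, and it was highest in untreated cells in 1654 regions (99.0%). The pileup is fold enrichment times the solved background, and the rule read the fold enrichment. The pileup ratio and this count therefore follow in part from the choice and are no test of it.

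**Figure D2:**
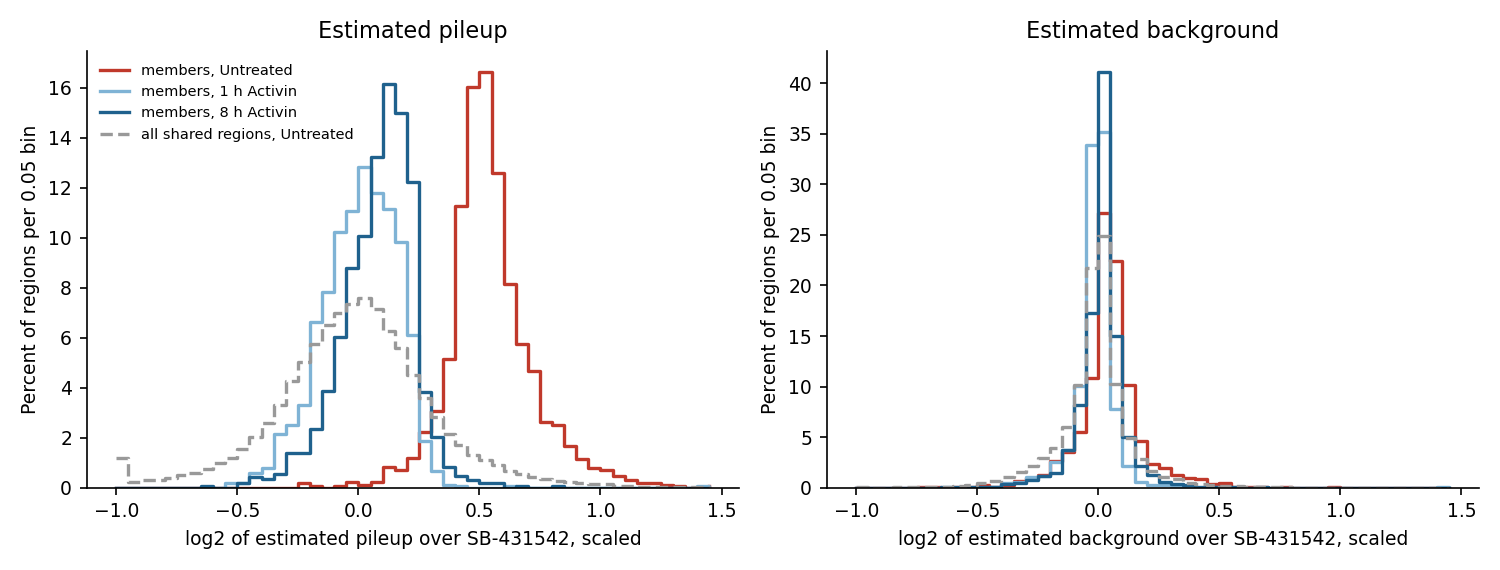
Distribution over regions of the log2 ratio to SB-431542 of the scaled pileup and of the scaled local background, for untreated-high regions (marked members) in untreated cells and at 1 h and 8 h of Activin, and for all shared regions in untreated cells (dashed). The end bins hold values beyond the axis; the untreated pileup ratio centres on 0.52 and the background ratio on 0.04.

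In 68 regions (4.07%) the scaled background in untreated cells was lower by 0.2 or more, and in 9 the pileup ratio was 0 or less. Peak width also bears on the value, as MACS2 averages over the peak. The untreated peak was less than 0.5 times as wide as the SB-431542 peak in 186 untreated-high regions (11.1%, Wilson interval 9.72 to 12.7) and in 6.46% of all shared regions. In those 186 the median pileup ratio was 0.45 and the median background ratio −0.03. The untreated peak was over 2 times as wide as the SB-431542 peak in 7.66%, against 5.99% of all shared regions. It was narrower than the SB-431542 peak in 35.3%, against 52.8%. In 1089 regions (65.2%, against 73.2% of all shared regions) the widest of the 4 peaks was at most 2 times the narrowest. There the median L was 0.47 and the pileup ratio 0.53.

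The peaks rested on a median of 303 estimated reads in untreated cells and 237 with SB-431542, which gives L a counting error of 0.13. The median −log10 q was 19.9 in untreated cells, against 8.97 with SB-431542, 6.31 at 1 h and 7.68 at 8 h, and 1662 regions (99.5%) had a −log10 q of at least 5 in untreated cells and 937 (56.1%) in every list. A −log10 q below 5 was thus rare in untreated cells and more frequent over the other lists. The −log10 q is made from the same peaks as the fold enrichment that the rule read. These values therefore follow in part from the choice and are no test of it.

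The region with the highest L lies in an intron of *Mef2a*, the gene of a MADS-box transcription factor. Its fold enrichment was 5.16 in untreated cells, against 2.36 with SB-431542, 1.81 at 1 h and 2.48 at 8 h. L was 1.16 in untreated cells, a 2.23-fold scaled difference with a counting error of 0.16, and −0.28 and 0.10 at 1 h and 8 h of Activin. The −log10 q was 49.6 in untreated cells, against 8.61, 2.91 and 7.96. The untreated value was the highest and the 1 h value the lowest.

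Next came an intron of *Col19a1*, a collagen gene, at chr1:24386696-24387089, with a fold enrichment of 5.40 in untreated cells against 2.57, 2.1 and 2.88 (SB-431542, 1 h, 8 h, an order kept below). A region 60.9 kb upstream of *Abcb5*, a transporter gene, followed with 6.66 against 3.21, 2.97 and 3.40. Its untreated peak was 513 bp wide and its SB-431542 peak 2472 bp, so the averages cover different stretches. A region near *Gm4792* had 4.25 against 2.17, 2.00 and 2.41 and holds an octamer. The window upstream of *Dars*, an aspartyl-tRNA synthetase gene, printed above with its octamer, belongs to a region at 3.8 against 2.03, 1.78 and 1.93, with an L of 0.94.

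The other 5 of the 10 highest were an intron of *Arl15* (4.47 against 2.33, 2.09 and 2.50), a region near *4930548K13Rik* (4.14 against 2.20, 2.21 and 2.34), an intron of *Colec12* (5.43 against 2.90, 2.68 and 3.09), a region 82.4 kb upstream of *Fbxl17* (6.38 against 3.41, 3.31 and 3.68) and an intron of *Tep1* (4.33 against 2.35, 2.49 and 2.60). The peak near *4930548K13Rik* was 337 bp wide in untreated cells and 2073 bp with SB-431542. In each of these 10 the 3 other lists lay closer to each other than to the untreated list.

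Where the gap to the Activin lists was widest, some regions were also lower after Activin than with SB-431542. A region 52.1 kb upstream of *Pdzrn3*, a ubiquitin ligase gene, had 3.67 in untreated cells, against 2.22, 1.88 and 1.84. A region on chromosome 8 near the defensin pseudogene *Defa-ps13* had 6.82 against 4.61, 3.59 and 3.79. An intron of *Mid1*, on the X chromosome, had 3.98 against 2.29, 1.87 and 2.26. At these 3 the order was untreated, then SB-431542, then at least 1 Activin list.

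The untreated-high region with the highest fold enrichment in untreated cells was an intron of *Phyhipl*, at 9.20 against 6.28, 5.15 and 6.13. Its untreated pileup, 245 reads per position, was below the 499 of the *Dnmt3a* promoter region described below. Others of this strength lay near *A830082N09Rik* (8.88 against 6.14, 5.73 and 6.78, with an octamer), 243 kb from *Shox2* (8.86 against 6.73, 5.65 and 7.14) and 342 kb from *Amot* (8.53 against 6.46, 5.48 and 6.62). The *Gli2* intron printed above had 8.41 against 6.22, 4.64 and 5.35. *Gli2* encodes an effector of Hedgehog signalling, and here L was 0.46 in untreated cells, −0.32 at 1 h and −0.19 at 8 h. By the mean log2 scaled fold enrichment of the 4 lists, untreated-high regions made up 1.66% of the fifth decile of shared regions and 0.228% of the highest, a description of values that the rule had read.

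By the RefSeq annotation, 968 of the 1670 region centres were intergenic (58.0%, 55.6 to 60.3), 637 intronic (38.1%, 35.8 to 40.5), 32 exonic (1.92%) and 13 at termination sites (0.778%). A further 20 lay at a promoter, that is, within the 1000 bp before or the 100 bp after a transcription start site (TSS), which makes 1.2% (0.777 to 1.84) against 5.71% of all shared regions. Of all shared regions, 32.9% were intronic, below the interval of the untreated-high regions, and 56.3% intergenic, within it. Among regions with an SB-431542 fold enrichment from 1.98 to 2.82, the middle 50% of the untreated-high regions, the promoter share was 1.44% (0.825 to 2.50) against 1.84%. The intron share there was 39.8% (36.5 to 43.2) against 33.4%, and the intergenic share 56.5% (53.1 to 59.8) against 61.2%. At like strength the promoter interval took in the share of all shared regions, the intron interval lay above it and the intergenic interval below it.

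The median distance to the nearest TSS was 55.6 kb (50.3 to 61.4), against 49.9 kb over all shared regions. The median region was 843 bp wide (813 to 875), against 975 bp. The GC content of the central 300 bp was 45.7% (45.3 to 46.3), against 47.3%. GC content moved with L over all shared regions, whose median L in untreated cells was 0.05 in the decile of lowest GC and −0.07 in the decile of highest, and its part in the choice of regions was not tested. The share of untreated-high regions was 1.27% in the lowest decile and 0.265% in the highest.

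They lay on every chromosome but Y. The 1670 regions had 1425 different nearest genes, 1226 of which were nearest to 1 alone, and 122 (7.31%) lay within 50 kb of another. These numbers were not set against those of other shared regions. Chromosome X had the highest share, 65 of 3932 shared regions (1.65%, 1.3 to 2.1), and chromosome 19 the lowest of the autosomes, 0.688%. No 1 Mb window held more than 5, a number reached in 3 windows. The window near *Abcb5*, *Itgb8* and *Macc1* on chromosome 12 had 129 shared regions. Those near *Meis2* on chromosome 2 and near *Hopx*, *Igfbp7* and *Spink2* on chromosome 5 had 92 and 77. *Spink2*, a protease inhibitor gene, was the one gene with 3 untreated-high regions within 50 kb of a TSS. The strongest of these, 27.4 kb away, had a fold enrichment of 5.26 in untreated cells, against 4.01 with SB-431542, 3.09 at 1 h and 3.90 at 8 h.

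The sequences differed from those of other shared regions in a few motifs. The share of central 300 bp windows holding the octamer ATGCAAAT was 5.27% (88 regions, 4.30 to 6.45), against 2.77% of all shared regions. The ESRRB motif TCAAGGTCA was in 2.28% (38 regions, 1.66 to 3.11), against 0.969%. The forkhead motif GTAAACA was in 6.59% (5.49 to 7.88), against 4.30%. The E-box CAGGTG was in 27.3% (25.2 to 29.5), against 20.5%, and the E-box CAGCTG in 21.9% (20.0 to 24.0), against 17.3%. Of 31 motifs searched, these 5 and the FOXH1 motif TGTGGATT (1.86%, 1.31 to 2.62, against 1.24%) had an interval wholly above that of all shared regions. For FOXH1 the intervals overlapped in each of the 5 other settings tried (window at the untreated peak, whole region, outside promoters, GC of 40 to 50%, like SB-431542 strength), and for CAGCTG over the whole region (48.7%, 46.4 to 51.1, against 46.2%).

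**Figure D3:**
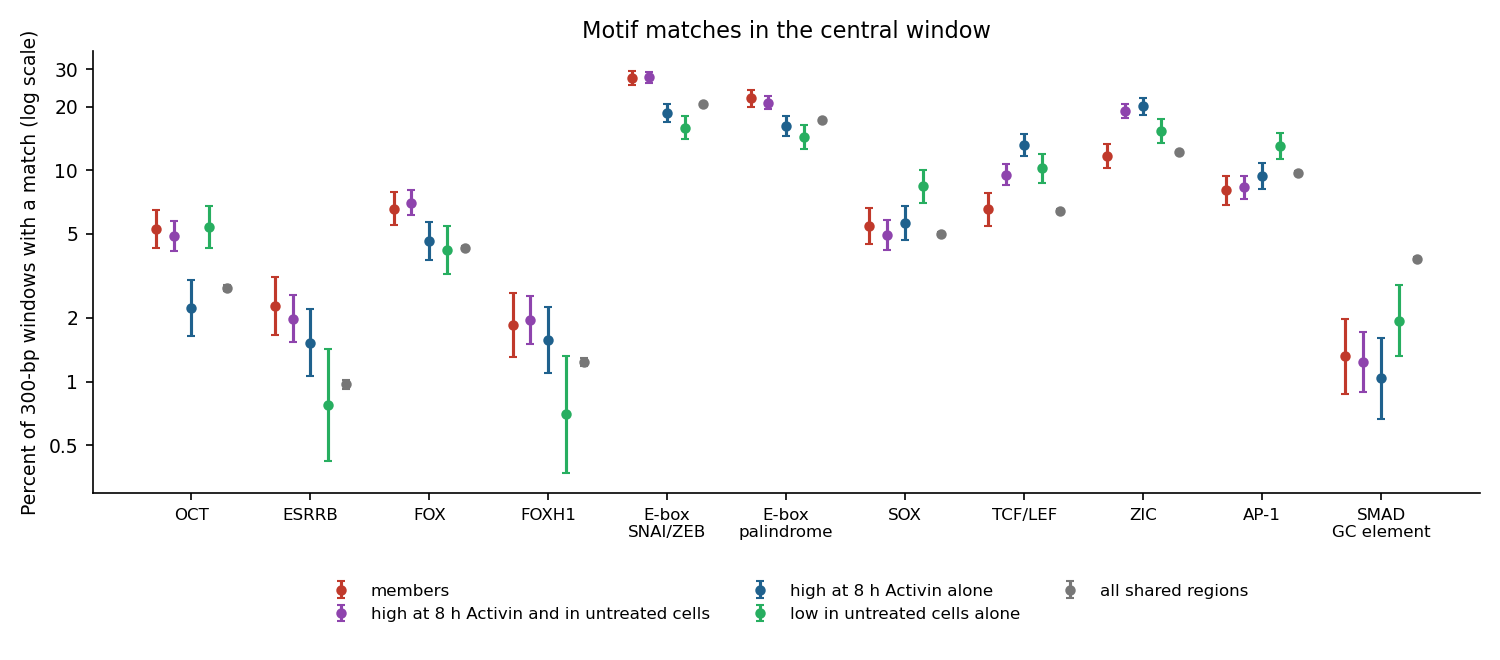
Share of central 300 bp windows with an exact motif match, in per cent on a log axis, for untreated-high regions (members), for 3 groups cut by similar rules and for all shared regions. Points carry 95% Wilson intervals, the E-box of SNAI/ZEB type is CAGGTG and the palindromic one CAGCTG; the octamer is in 5.27% of untreated-high regions and 2.77% of all shared regions.

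Of the other motifs, 4 had an interval wholly below that of all shared regions, those of AP-1, the SMAD GC element, SP and ETS. The AP-1 motif TGANTCA, bound by FOS and JUN, was in 8.02% (6.82 to 9.43) against 9.72%, and the SMAD GC element GGCGCC in 1.32% (0.872 to 1.99) against 3.8%. At a GC content of 40 to 50% the intervals overlapped for AP-1 (9.08%, 7.44 to 11.04, against 11.1%) and for the SMAD GC element (0.612%, 0.281 to 1.33, against 1.18%), and at like SB-431542 strength for the SMAD GC element (1.56%, 0.913 to 2.65, against 1.92%). The SP and ETS intervals overlapped outside promoters and in both of these settings, and the SP share turned higher at that GC content and at that strength (0.918% against 0.667%, and 1.44% against 1.34%). The NFY motif CCAATCAG was in 2.99% (2.28 to 3.93) against 2.27%, with overlapping intervals, and stood above in 3 of the 5 other settings. The ZIC motif CCTGCTG was in 11.7% (10.2 to 13.3) against 12.2%, the TCF/LEF motif CTTTGAA in 6.53% (5.44 to 7.81) against 6.41%, the SOX motif CCATTGT in 5.45% against 4.97% and the T-box motif in 1.5% against 1.29%. In the central window the intervals for ZIC, TCF/LEF, SOX and T-box letters overlapped those of all shared regions. Over the whole region the ZIC interval lay wholly below, as did those of CRE/ATF, KLF, CTCF and TEAD.

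For the octamer, ESRRB, forkhead and CAGGTG letters the intervals lay above in all 6 settings. With the windows limited to a GC content of 40 to 50%, the octamer was in 5.61% against 3.40%, the ESRRB motif in 2.24% against 1.15%, the forkhead motif in 6.53% against 4.77% and the E-box CAGGTG in 26.7% against 19%. At SB-431542 fold enrichments of 1.98 to 2.82 they were in 5.04% against 2.77%, 2.64% against 1.17%, 6.47% against 4.54% and 27% against 20.0%. Any of the 4 was in 622 untreated-high regions (37.2%, 35.0 to 39.6) against 26.8%, and 2 or more in 4.01% against 1.69%. The majority, 1048 regions, held none of them. Turned round, 1.95% of the 4502 shared regions with an octamer were untreated-high, and 1.00% of those without, so the motif marks a small minority either way.

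Next to 3 groups cut by similar rules, untreated-high regions were most like the 2822 regions high both at 8 h of Activin and in untreated cells. There the octamer was in 4.89%, the ESRRB motif in 1.98%, the forkhead motif in 7.02% and the E-box CAGGTG in 27.5%. They parted in the ZIC motif, in 11.7% (10.2 to 13.3) of untreated-high regions and 19.1% (17.7 to 20.6) of the regions high in both states, and in the TCF/LEF motif, in 6.53% (5.44 to 7.81) and 9.53% (8.50 to 10.7). In the 1834 regions high at 8 h alone, the octamer was in 2.24%, the E-box CAGGTG in 18.6%, the ZIC motif in 20.1% and the TCF/LEF motif in 13.2%. Among these 3 groups, the ZIC and TCF/LEF shares were higher in both groups that were high at 8 h, and the octamer and CAGGTG shares in both that were high in untreated cells.

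The 1286 regions low in untreated cells alone held the octamer in 5.37%, as often as untreated-high regions did. They differed in the E-box CAGGTG (15.9%, against 27.3% in untreated-high regions), the ESRRB motif (0.778%, against 2.28%), AP-1 (13%, against 8.02%), SOX (8.40%, against 5.45%) and TCF/LEF (10.2%, against 6.53%). An octamer was thus frequent where accessibility in untreated cells departed from the other 3 states in either direction.

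By the gene, 1536 of 25424 RefSeq genes with a shared region within 50 kb of a TSS had an untreated-high region there (6.04%). The list of pluripotency genes had 7 of 32 (21.9%, 11 to 38.8), and 8 of its 321 shared regions were untreated-high (2.49%, against 0.974% over all genes). As many regions near these genes, 8, were low in untreated cells alone. The list of NODAL and Activin pathway genes and targets had 5 of 29 (17.2%, 7.60 to 34.5), with 6 of 259 regions (2.32%). Some loci of the NODAL and Activin, mesendoderm and WNT lists were chosen by the study on these cells. All lists were set with earlier results of these data known. Mesendoderm genes and p53 targets had 0 of 20 genes each, with 0 of 159 regions, which allows a share of up to 1.89%, and 0 of 155, which allows up to 1.94%. The other 14 lists had between 1 and 3 genes each.

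*Dnmt3a* encodes a de novo DNA methyltransferase of early embryonic cells. Its promoter region at chr12:3889513-3892972 had a fold enrichment of 3.32 in untreated cells, against 2.51 with SB-431542, 2.39 at 1 h and 2.55 at 8 h. The −log10 q was 108, against 55.4, 40.5 and 51.4, and the pileup 499, against 400, 323 and 362 reads per position. The untreated peak covered 721 bp of it and the SB-431542 peak 1662 bp. L in untreated cells was 0.43, and this was the promoter with the highest −log10 q among the 20.

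*Sall4* encodes a zinc-finger factor needed by pluripotent cells. The region at chr2:168764482-168767470, 1.23 kb from its TSS and at the promoter of the opposite-strand transcript *Gm14261*, had 3.70 in untreated cells, against 2.65, 2.71 and 2.87. Its untreated peak was 669 bp wide, against 2885, 2831 and 2976 bp in the other lists. The unscaled pileup was 250 in untreated cells and 263 with SB-431542, and the scaled pileup ratio of 0.19 was smaller than its L of 0.51. A second region 32.9 kb from the *Sall4* TSS, at the promoter of *Atp9a*, had 2.91 against 2.22, 1.88 and 2.48.

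A region between *Gdf3*, a NODAL-related ligand gene, and *Dppa3*, a germ cell and oocyte factor gene, lies at chr6:122575821-122577574, 33.4 kb from *Gdf3* and 49.7 kb from *Dppa3*. It had 4.76 in untreated cells, against 3.19, 3.20 and 3.33, with an L of 0.60, and peaks of 360 bp in untreated cells and 1595 bp with SB-431542. Near *Nr0b1* (DAX1, a repressor found in embryonic stem cells), a region 45.7 kb away had 3.34 against 2.24, 2.25 and 2.51. A region 5.12 kb upstream of *Pou3f1*, the gene of an epiblast and neural POU factor, had 3.33 against 2.55, 2.37 and 2.79, with a pileup ratio of 0.08. One 18.4 kb upstream of *Fgf5*, an epiblast growth factor gene, had 2.74 against 2.08, 2.14 and 2.33, and the list was completed by *L1td1* (2.45 against 1.86, 1.73 and 2.00). None of these regions had L over 0.61 in untreated cells.

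Of the NODAL and Activin genes, *Inhba* encodes the chain of Activin A. A region in its intron, 9.08 kb from the TSS, had 3.19 in untreated cells, against 2.35, 2.41 and 2.40. The unscaled pileup there was 208 in untreated cells and 209 with SB-431542, and the scaled pileup ratio was 0.26, with an L of 0.47. *Acvr1c* encodes the type I receptor ALK7, and an intronic region 47.7 kb from its TSS had 3.29 against 2.48, 2.44 and 2.41. *Bambi* encodes a decoy receptor, and a region 45.2 kb from it had 3.14 against 2.24, 2.16 and 2.23. In *Inhba* and *Acvr1c* the untreated peak was narrower than the others, at 325 and 303 bp against 494 and 1005 bp with SB-431542.

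*Trh*, the gene of the thyrotropin-releasing hormone precursor and a delayed target of the pathway, had 2 untreated-high regions among 12. The one 6.88 kb downstream of the TSS had 2.76 in untreated cells, against 2.11, 2.08 and 2.28, and the one 28.1 kb upstream had 4.06 against 3.06, 3.04 and 3.04. Near *Lefty1*, *Lefty2*, *Pmepa1*, *Wnt3*, *Eomes*, *T*, *Smad7*, *Tbx3* and *Nodal*, 0 of the 10 to 18 shared regions at each gene were untreated-high, against 0.974% of those near all genes, and regions this few do not set these genes apart from that share. *Pmepa1*, *Eomes* and *T* each had 1 region with L of at least 0.4 in untreated cells that the Activin limits left out.

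*Hand1* and *Neurog2* encode basic helix-loop-helix factors of the mesoderm and of neural progenitors. The *Hand1* region at chr11:57813630-57814119, 18.3 kb from its TSS, had 3.3 in untreated cells, against 2.21 with SB-431542, 1.68 at 1 h and 2.00 at 8 h. A region 19 kb from *Neurog2* had 4.09, against 2.89, 2.60 and 2.22, with L of 0.53 in untreated cells, −0.05 at 1 h and −0.35 at 8 h. In both the Activin lists lay below the inhibitor list as well.

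*Rarb*, a retinoic acid receptor gene, had 2 untreated-high regions in its introns. At 2.42 kb from the TSS the fold enrichment was 2.90 in untreated cells, against 2.04, 1.76 and 2.08, and at 29.9 kb it was 5.08, against 3.88, 3.69 and 3.79. At 2.42 kb the unscaled pileup was 199 in untreated cells and 200 with SB-431542, and the scaled pileup ratio was 0.26, with an L of 0.54. The related receptor gene *Rarg* had 1, at 8.24 kb (3.25 against 2.37, 2.47 and 2.59). An intron of *Kdm3a*, a histone demethylase gene of the hypoxia list, had 3.90 against 2.47, 2.18 and 2.74 and the highest L of the list genes, 0.69. A region 9.14 kb from *Cebpb* had 4.60 against 3.36, 2.82 and 3.31. *Hmgcs1* of sterol synthesis had 2 regions within 50 kb, both nearer to other genes, with 4.77 and 3.63 in untreated cells against 3.32 and 2.70 with SB-431542.

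**Figure D4:**
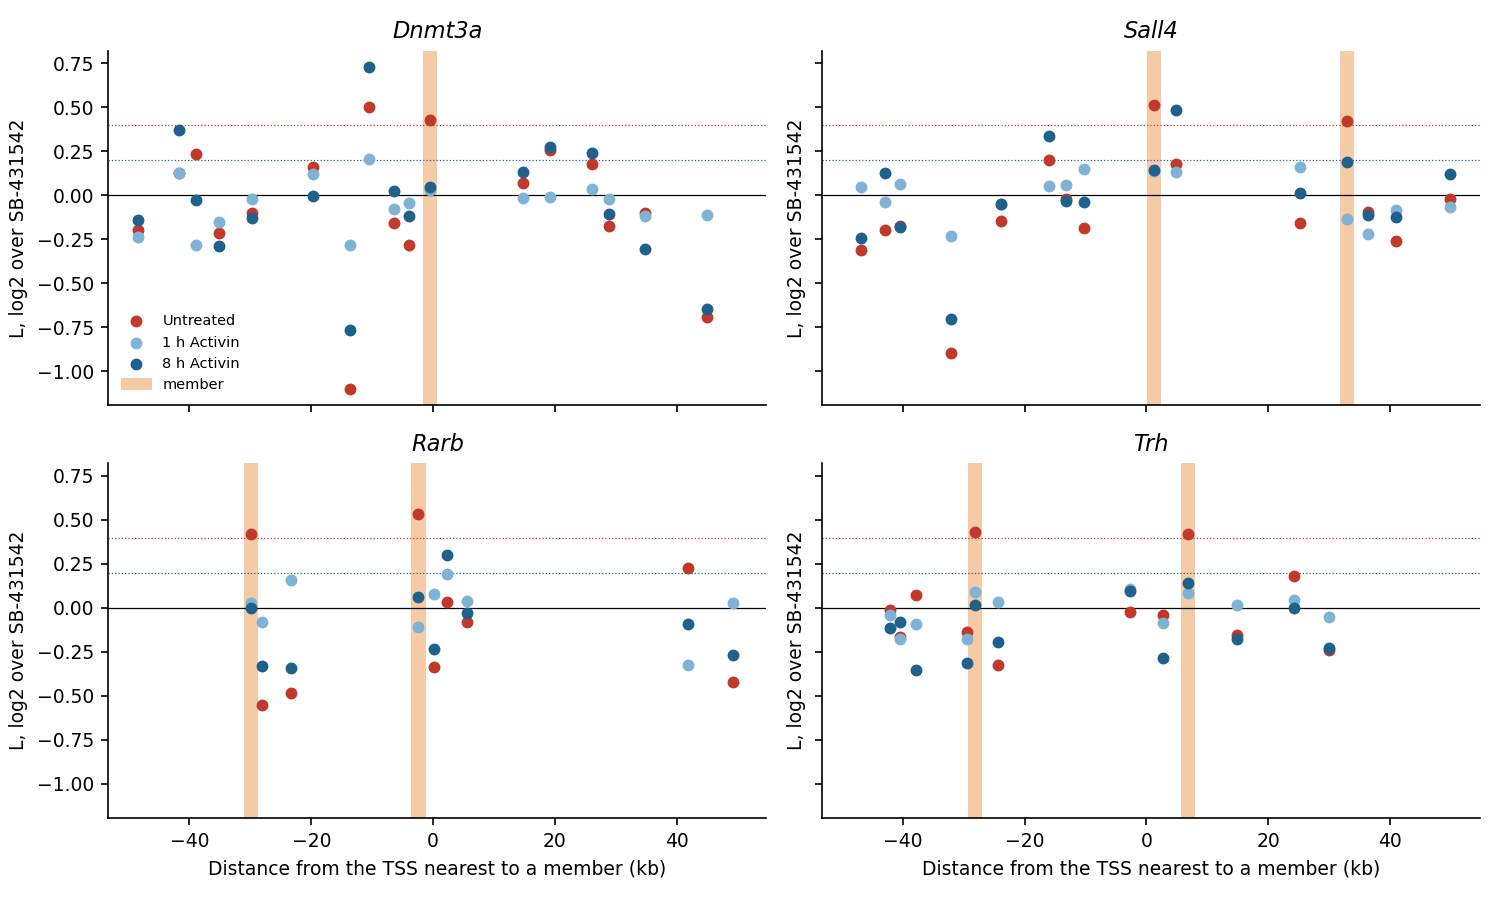
L (log2 ratio to SB-431542) in untreated cells and at 1 h and 8 h of Activin for every shared region within 50 kb of the TSS of *Dnmt3a*, *Sall4*, *Rarb* and *Trh*, against distance from the TSS in kb. Untreated-high regions are shaded and dotted lines stand at 0.4 and 0.2; 1 of 17, 2 of 15, 2 of 9 and 2 of 12 regions are untreated-high at these genes.

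Single genes held regions of opposite behaviour. At *Dnmt3a* a region 10.6 kb upstream of the TSS had L of 0.50 in untreated cells and 0.73 at 8 h, and one 13.6 kb upstream had −1.10 and −0.76. At *Sall4* a region 32.0 kb upstream had −0.90 in untreated cells and −0.71 at 8 h. At *Rarb*, between both untreated-high regions, L was −0.55 and −0.48 in untreated cells at 28.1 and 23.3 kb upstream. At these genes untreated-high regions were single elements among neighbours with other values.

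Among the 20 promoters, *Inhbc*, an inhibin beta chain gene of the liver, had the highest L, 0.79, with 3.32 in untreated cells against 1.96, 1.72 and 2.14. Its untreated peak was 336 bp wide and its SB-431542 peak 2048 bp. *Ogt*, the gene of the enzyme that adds O-linked N-acetylglucosamine to proteins, had 3.76 against 2.75, 2.92 and 2.82. The others with the highest −log10 q were *Itga10* (3.87 against 2.77, 2.46 and 3.08), *Rnase1* (3.77 against 2.87, 2.65 and 2.74), *9530082P21Rik* (2.63 against 2.02, 2.01 and 2.1), *A330076H08Rik* (3.63 against 2.56, 2.39 and 2.70), *Slc38a3* (2.70 against 1.96, 1.77 and 2.15) and *H2-T10* (3.37 against 2.52, 2.29 and 2.67). At *Ogt* and *9530082P21Rik* the unscaled pileup was 137 and 161 in untreated cells, against 143 and 164 with SB-431542. Their scaled pileup ratios were 0.21 and 0.23, with L of 0.48 and 0.41. The *Slc38a3* promoter, of an amino acid transporter gene, holds a forkhead match, an ESRRB match and both E-boxes.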

How the data were processed

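According to the methods of the study, the authors trimmed the reads (cutadapt 1.9.1), mapped them to mm10 (BWA 0.6.2), combined each state's libraries (Picard) and ran MACS2 2.1.1.20160309 in broad mode with no control. The deposited fold enrichment is a ratio of mean pileup to local background. The deposited −log10 p is from the authors' Poisson test of that pileup, and the deposited score in the last column is the −log10 of the q value made from it. All are averages over a peak, so a wider peak takes in more flanking sequence, and a higher local background lowers the ratio.

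The 4 lists were read with Python 3.11.15, numpy 2.4.6, pandas 2.3.3 and scipy 1.17.1, and sequences with pysam 0.24.0. Background was solved from the fold enrichment and −log10 p, and pileup is fold enrichment times background. The routine was tested on values simulated with the formula that it inverts, without averaging over a peak. That test does not measure the error on the deposited averages. Estimated reads are pileup times peak width over the 200 bp extension. Depth is unknown beyond this estimate. The centre of each region was placed on 45756 transcripts of 26180 genes from RefSeq. Exact matches to 31 motifs were sought on both strands, and 18 gene lists with 452 genes were used. Shares carry 95% Wilson intervals and medians binomial order-statistic intervals. Regions are not replicates, and no p-value was computed.

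The text names regions by the highest L, margin, fold enrichment and promoter −log10 q, by genes with most regions, by gene list, by the loci of the study, and next to each threshold and in the fullest 1 Mb windows. The members and lists were chosen with earlier results of these data known. Alternatives covered the score minimum, list length, peak value, measure, scaling, merging, presence, chromosomes, thresholds, comparison state, motif window and gene distance, and 5 kinds were added after the data had been seen. The labels list 48 libraries, and how these relate to the samples sequenced is not known. The sequence of 1 region is not reported here.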

Additional observations from a re-analysis of the deposited data

How the results depend on the processing

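No paired analysis was possible because each state is 1 merged list that holds both replicates. The intergenic share, above that of all shared regions in the main run (58.0% against 56.3%), was below it at like SB-431542 strength (56.5% against 61.2%) and at a GC content of 40 to 50% (60.3% against 63.0%, within the interval). The SP motif, in fewer untreated-high than shared regions in the main run, was in more of them in the same settings (1.44% against 1.34% and 0.918% against 0.667%, intervals overlapping). No other difference from all shared regions that stood apart in the main run changed direction. The number of untreated-high regions was 1670 by the main rule, 1107 where each list had to reach a −log10 q of 5, 74 with L of at least 0.6 in untreated cells and below 0.1 after Activin, 3090 against the median of the 3 other states and 6215 with −log10 q as the measure, of which 505 were untreated-high by the main rule. The median log2 pileup ratio, 0.52, became 0.50, 0.72, 0.62 and 0.24 in the same order, and 0.49 both with the pileup as the measure (2370 regions, 996 of them shared) and with scaling by the upper quartile. The intergenic share, 58.0%, was 55.4% at the stricter limits and 60.9% with −log10 q, and the promoter share, 1.2%, was 0 at the stricter limits, where 74 regions remained. Of 31 motifs, 10 had an interval apart from that of all shared regions, and 6 did so at like SB-431542 strength, a check added after the data had been seen, as was the one on width: with all 4 peaks within 2 times of each other in width, 1142 regions met the rule, 1021 of them shared, with a pileup ratio of 0.52. The octamer, ESRRB, forkhead and CAGGTG letters stood above all shared regions in all 6 motif settings. At 10 kb in place of 50 kb, 6 of the 18 gene lists had an untreated-high region, against 16. The cause of these changes was not tested. Without replicate lists, a difference of 0.4 in L cannot be set against the spread between cultures.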

Other observations

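The octamer preceded by TTGT with 1 base between, printed for 4 untreated-high regions, was in 0.240% of them (0.0932 to 0.614) and in 52 of all 162505 shared regions (0.0320%). Of windows with an octamer, 4 of 88 (4.55%, 1.78 to 11.1) had this arrangement among untreated-high regions, and 52 of 4502 (1.16%) among all shared regions. It was in 1 region of each of the 3 comparison groups. The arrangement was sought after the octamer share had been seen, and 4 regions are few. The fold enrichment at the *Cadm2* intron was 5.34 in untreated cells, against 3.74 with SB-431542, 3.48 at 1 h and 3.78 at 8 h of Activin, and in the chromosome X region 131 kb upstream of *Dusp21* 5.68, against 3.86, 3.51 and 4.26. Near *Olfr307* it was 3.50, against 2.51, 2.61 and 2.18, and in the chromosome 19 region, for which *Gm26629* was the nearest gene, 2.62, against 1.99, 2.01 and 1.84.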
